A study of Mus musculus with 3 samples.

Results

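Hair keratins are the intermediate filament proteins of the hair follicle, and keratin-associated proteins, encoded by the Krtap genes, are the small proteins that cross-link them in the hair shaft. The genes described here were every gene of the deposited annotation named as a keratin of the hair shaft, the inner root sheath or the companion layer (Krt25 to Krt28, Krt31 to Krt36, Krt71 to Krt75 and Krt81 to Krt87) or as a Krtap gene that had at least 1 unique molecular identifier (UMI, 1 counted RNA molecule) in the normal library. They numbered 48 of the 78 symbols that fit the names and of 31053 genes in all. They comprised 7 keratins of the inner root sheath, 13 keratins of the hair shaft, Krt75 of the companion layer, and 27 of 57 Krtap genes. The normal library therefore chose the members, and their presence there is not a result. Of the members, 7 had 1 UMI in the deposited normal matrix, 15 had 2 to 9, 9 had 10 to 99, 9 had at least 100 but under 1000, and 8 had 1000 or more. Just outside the threshold, 30 Krtap genes had no UMI in the normal library, and of these Krtap4-16 had 1 UMI in each of the other libraries and Krtap16-1 had 1 UMI in the CE library.

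The study measured 3' transcripts of single cells from dorsal skin of C57BL/6 mice at 7 weeks of age, with 1 library per group. Mice of the normal group received glycerin as control, mice of the IMQ group received imiquimod, a Toll-like receptor agonist that gives a psoriasis-like dermatitis, and mice of the CE group received imiquimod with celastrol, a triterpenoid from plants. The number of animals per library is not given in the sources used here. With 1 library per group there was no replicate check, no test was possible, and treatment and library cannot be told apart, so every interval below covers counting error alone and leaves out the variation between cells and animals.

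After filtering, 9558 normal, 7495 IMQ and 6092 CE cells remained, with median depths of 5743, 8710 and 10403.5 UMIs per cell. Their summed depths were 67354304, 105704366 and 94298804 UMIs. The libraries shared between 15 and 26 cell barcodes pairwise, and 2 normal cells with at least 10 member UMIs had a barcode that also occurred in the IMQ library. The kept cells held 34355 normal, 431 IMQ and 495 CE member UMIs. A further 4181 member UMIs of the normal library lay in barcodes scored as doublets, and these were left out.

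In the growing hair follicle, matrix cells at the base divide and move upwards into concentric layers: the medulla, cortex and cuticle of the shaft, the inner root sheath that moulds it, and the companion layer that lies against the outer root sheath. Each layer pairs an acidic (type I) with a basic (type II) keratin, Krt25 to Krt28 with Krt71 to Krt73 in the inner root sheath and Krt31 to Krt36 with Krt81 to Krt87 in the shaft. The genes lie in clusters. In the GRCm38 annotation 19 members, 11 type I keratins and 8 Krtap genes, lay on chromosome 11 between 99315516 and 100105626, and the 10 type II keratins lay on chromosome 15 between 101431038 and 101802346. A further 15 Krtap genes lay on chromosome 16 between 88610705 and 89571183, and the other 4 lay on chromosomes 1, 7 and 10.

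The promoters of the members were compared, and 38 of the 48 members had an entry in the RefSeq promoter table (GRCm38.p6). The shaft keratins without an entry were Krt35, which had the most UMIs of them, Krt33a, Krt81, Krt83, Krt86 and Krt87. Within the 250 bases before the start, TATAAA, the core of the TATA box, occurred on either strand in 30 of 38 members (78.9%), against 12.4% of 32851 windows of all genes. On the gene strand it began 20 to 40 bases before the start in 22 of 38 members, against 1.99% of all windows. All 7 inner root sheath keratins had the motif, as did 5 of 7 shaft keratins and 18 of 23 Krtap genes with an entry, while the Krt75 window did not hold it. CTTTGA, the core bound by LEF and TCF factors, occurred in 13 of 38 (34.2%) against 13.8% of all windows, in 4 of 7 shaft keratins and in 1 of 7 inner root sheath keratins. TTTATT, a core of HOXC13-like sites, occurred in 7 of 38 (18.4%) against 18.1% of all windows. A letter match describes the window and is not a binding site. The 5 windows below belong to the 3 inner root sheath keratins with the most UMIs, to Krt32, which was found in epidermis as well, and to Krtap8-1, the Krtap gene with the most UMIs. Each is 250 bases, 5′ to 3′ on the gene strand, which is the minus strand for all 5, and capitals mark TATAAA and CTTTGA or its complement TCAAAG. They lie at chr11:99322952-99323201, chr11:99374904-99375153, chr15:101743098-101743347, chr11:100088270-100088519 and chr16:89487953-89488202.
Krt25: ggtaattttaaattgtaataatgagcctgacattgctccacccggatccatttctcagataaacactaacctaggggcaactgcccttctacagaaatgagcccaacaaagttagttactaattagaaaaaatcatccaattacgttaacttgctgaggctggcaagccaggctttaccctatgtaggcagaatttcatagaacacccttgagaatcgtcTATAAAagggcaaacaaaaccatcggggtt
Krt28: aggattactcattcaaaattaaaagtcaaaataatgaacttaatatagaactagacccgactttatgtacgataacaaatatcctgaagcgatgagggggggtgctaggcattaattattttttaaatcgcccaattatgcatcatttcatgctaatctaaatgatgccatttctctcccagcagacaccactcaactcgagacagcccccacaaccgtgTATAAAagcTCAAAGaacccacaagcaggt
Krt71: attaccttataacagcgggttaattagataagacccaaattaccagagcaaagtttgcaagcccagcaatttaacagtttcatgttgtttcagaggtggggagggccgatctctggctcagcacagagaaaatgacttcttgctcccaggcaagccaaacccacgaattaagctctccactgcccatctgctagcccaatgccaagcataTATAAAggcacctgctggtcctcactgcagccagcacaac
Krt32: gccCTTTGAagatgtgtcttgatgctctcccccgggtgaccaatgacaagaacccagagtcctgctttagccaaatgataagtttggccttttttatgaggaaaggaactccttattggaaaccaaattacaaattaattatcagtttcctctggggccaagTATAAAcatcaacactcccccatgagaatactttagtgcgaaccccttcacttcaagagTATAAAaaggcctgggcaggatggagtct
Krtap8-1: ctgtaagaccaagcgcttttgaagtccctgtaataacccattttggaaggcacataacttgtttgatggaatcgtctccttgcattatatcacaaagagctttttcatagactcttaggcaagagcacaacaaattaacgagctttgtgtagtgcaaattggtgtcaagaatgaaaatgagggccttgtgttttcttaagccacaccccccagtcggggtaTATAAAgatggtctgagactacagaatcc
TATAAA began 30 bases before the start in Krt25 and Krt28, 40 in Krt71 and 29 in Krtap8-1. Krt32 held it at 88 and 29 bases, and CTTTGA at 247 bases, before the start. In Krt28, TCAAAG began 21 bases before the start.

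Levels are given as CPM, the UMIs of a gene over all UMIs of the same cells, scaled to 1000000. The summed inner root sheath keratins stood at 370 CPM (95% interval 366 to 375) in normal, 1.52 CPM (1.30 to 1.78) in IMQ and 0.827 CPM (0.654 to 1.03) in CE skin. The summed shaft keratins stood at 84.9, 1.54 and 2.83, the Krtap genes at 36.0, 0.568 and 1.44, and Krt75 at 18.9, 0.445 and 0.148. All 4 groups were thus highest in the normal library, and their order between the other libraries differed. The normal level over the IMQ level was 243-fold for the inner root sheath keratins (208 to 286), 55.1-fold for the shaft keratins (47.1 to 64.8), 63.4-fold for the Krtap genes (49.0 to 83.3) and 42.6-fold for Krt75 (31.8 to 58.2). Over the CE level it was 448-fold (359 to 566), 30-fold (26.5 to 34.0), 24.9-fold (21.0 to 29.9) and 128-fold (75.7 to 234). Summed over a library, fewer follicle cells and less RNA per cell cannot be told apart. All 48 members had a UMI in the kept normal cells, 21 had one in the IMQ library and 21 in the CE library.

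Between the treated libraries, the CE level over the IMQ level was 0.543 for the inner root sheath keratins (0.409 to 0.716) and 0.334 for Krt75 (0.170 to 0.617), but 1.84 for the shaft keratins (1.51 to 2.25) and 2.54 for the Krtap genes (1.86 to 3.5). These sums held few UMIs, and 57 of the CE Krtap UMIs came from 1 cell.

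**Figure D1:**
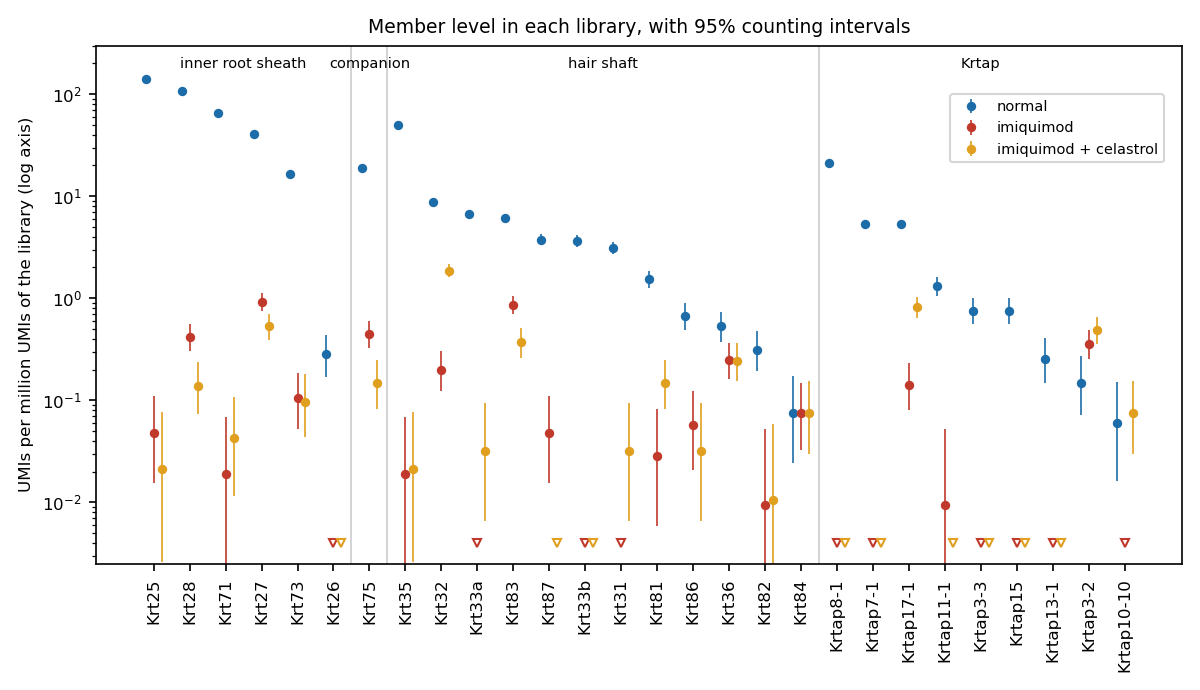
CPM in the library (log axis) for the members compared with the normal library, 1 point per library with its 95% counting interval, grouped by layer. Open triangles at the foot of the axis mark libraries with 0 UMIs, and intervals that reach below the axis are clipped; normal points stand above the others for all genes shown but Krt84, Krtap3-2 and Krtap10-10.

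Among inner root sheath keratins, Krt25 had the highest normal level, with 9413 normal, 5 IMQ and 2 CE UMIs, an order kept below, or 140, 0.0473 and 0.0212 CPM. Its normal level was 2955-fold the IMQ level (1266 to 9101). Krt28 had 7254, 44 and 13 UMIs, or 108, 0.416 and 0.138 CPM. Krt71, a type II keratin of all layers of the sheath, had 4383, 2 and 4 UMIs, or 65.1, 0.0189 and 0.0424 CPM. Krt25 and Krt71 were thus nearly absent outside the normal library, while Krt28 kept more of its UMIs there. Krt27, a further type I keratin, had 2746, 98 and 50 UMIs, or 40.8, 0.927 and 0.530 CPM, and its normal level was 44.0-fold the IMQ level and 76.9-fold the CE level. Krt73, known from the cuticle of the sheath, had 1120, 11 and 9 UMIs, a 160-fold and a 174-fold difference. Krt26 had 19, 0 and 0 UMIs, at least 9.94-fold and at least 8.87-fold higher in the normal library against a floor of 3 counts per library. Krt72, the other cuticle keratin of the sheath, had 2, 1 and 0 UMIs.

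Among shaft keratins, Krt35, a type I keratin made early in the shaft, led with 3345, 2 and 2 UMIs, or 49.7, 0.0189 and 0.0212 CPM. Krt33a had 451, 0 and 3 UMIs, Krt33b had 245, 0 and 0, and Krt31 had 208, 0 and 3. These 3 type I keratins were at least 236-fold, at least 128-fold and at least 109-fold higher in the normal than in the IMQ library. Those folds rest on a single normal cell, which held 429, 240 and 194 of the normal UMIs. Without it the normal levels were 0.327, 0.0742 and 0.208 CPM. That cell also held 234 Krt87, 312 Krt83 and 88 Krt81 UMIs of the normal counts below. Krt87 had 253, 5 and 0 UMIs, Krt86 had 45, 6 and 3, Krt82 had 21, 1 and 1, and Krt34 had 3, 0 and 0. A second set of shaft keratins kept more UMIs outside the normal library. Krt83, a type II keratin of the cortex, had 409, 91 and 35 UMIs, or 6.07, 0.861 and 0.371 CPM, a 7.05-fold (5.61 to 8.95) and a 16.4-fold difference. Krt32, a type I keratin of the shaft cuticle, had 597, 21 and 176 UMIs, or 8.86, 0.199 and 1.87 CPM, a 44.6-fold and a 4.75-fold difference. Krt81 had 103, 3 and 14 UMIs. Krt36 had 36, 26 and 23 UMIs, a 2.17-fold (1.28 to 3.75) and a 2.19-fold difference. Krt84 had 5, 8 and 7 UMIs, with levels of 0.0742, 0.0757 and 0.0742 CPM.

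Krt75, a type II keratin of the companion layer and the medulla, had 1275, 47 and 14 UMIs, and 17 of its 47 IMQ UMIs came from 1 cell. Its log2 difference from normal was -5.41 in the IMQ and -6.99 in the CE library, and -6.26 and -7.83 with the barcodes scored as doublets kept.

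Of the Krtap genes, Krtap8-1 led with 1437, 0 and 0 UMIs, or 21.3 CPM in the normal library, at least 752-fold and at least 671-fold higher than in the IMQ and CE libraries. A single normal cell held 876 of these UMIs, and without it the normal level was 8.33 CPM. The same cell held 344 Krtap7-1 and 67 Krtap11-1 UMIs of the normal counts that follow. Krtap7-1 had 358, 0 and 0 UMIs, Krtap11-1 had 88, 1 and 0, Krtap3-3 and Krtap15 each had 51, 0 and 0, and Krtap13-1 had 17, 0 and 0. Krtap17-1 was the Krtap gene with the most UMIs in the CE library, with 356, 15 and 77 UMIs, or 5.29, 0.142 and 0.817 CPM. Krtap3-2 stood apart from the rest, with 10, 38 and 46 UMIs, or 0.148, 0.359 and 0.488 CPM, 2.42-fold and 3.29-fold higher in the treated libraries. The other 19 Krtap genes had 8 or fewer normal UMIs. The top gene of each further family was Krtap22-2 with 8, Krtap24-1 and Krtap16-3 with 6 each, Krtap19-4 with 5, Krtap14 and Krtap10-10 with 4, Krtap6-2 with 3, Krtap28-13 and Krtap12-1 with 2, and Krtap1-3, Krtap4-1, Krtap4-6, Krtap4-8, Krtap5-5 and Krtap9-3 with 1. In the treated libraries Krtap10-10 had 0 and 7 UMIs and Krtap28-13 had 5 and 5.

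Some members share sequence at their 3' ends, where these reads lie, and how reads with several matches were counted is not given in the sources used here. Of the 60-base stretches in the last 300 bases, 26.6% of those of Krt87 also occurred in AC103674.4, 11.6% of those of Krtap15 in AC125199.4, 7.05% of those of Krt33a in Krt31, Krt33b or Krt34, and 2.49% of those of Krtap4-8 in Gm11596. The levels of these genes are therefore less certain.

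A gene was called between libraries where its level differed at least 2-fold with a 95% interval off 1, among genes with at least 10 UMIs over both libraries. Of 27 members compared between the IMQ and the normal library, 25 were called lower in the IMQ library, where 14.1% of all genes were, and 1 was called higher, where 10.1% of all genes were. These were 6 of 6 inner root sheath keratins, 11 of 12 shaft keratins, Krt75 and 7 of 8 Krtap genes, with Krtap3-2 higher and Krt84 neither. Of 28 members compared between the CE and the normal library, 25 were called lower, where 14% of all genes were, and Krtap3-2 was again the 1 called higher, where 6.67% of all genes were. Krt84 and Krtap10-10 were called neither way. The counts describe the members and are no support for a difference, because 26 of the members compared in each case had at least 10 UMIs in the normal library, 9 had that many in the other library, and the rule had already required a normal UMI. The median log2 difference at CPM plus 1 was -2.18 for the IMQ and -1.89 for the CE comparison, against -0.08 and -0.10 over all genes. Both comparisons share the normal library.

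Between CE and IMQ, 12 members could be compared. Krt32, Krt81 and Krtap17-1 were called higher in the CE library (3 of 12, where 3.29% of all genes were), and Krt28, Krt83 and Krt75 were called lower (3 of 12, where 7.61% of all genes were). The CE level over the IMQ level was 9.39 for Krt32 (5.96 to 15.6), 5.75 for Krtap17-1 (3.28 to 10.8) and 5.23 for Krt81 (1.46 to 28.4). It was 0.331 for Krt28 (0.164 to 0.626), 0.334 for Krt75 (0.170 to 0.617) and 0.431 for Krt83 (0.283 to 0.643). Krt27, at 0.572 (0.398 to 0.812), had an interval below 1 but differed by less than 2-fold. Without the CE cell of 57 Krtap17-1 UMIs, that gene was no longer called, with a log2 difference of 0.58.

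Cells were clustered with the members left out of the genes used, so that member levels did not form the clusters, yet the clusters share cells with every value below and give no test. Clusters were named only from markers that are not members. With the 3 libraries pooled, the clusters named hair shaft or matrix-like held 1115 normal cells, 1 IMQ cell and 6 CE cells. They held 53.3% of the normal member UMIs (52.8 to 53.9), and a mixed cluster without a name, led by haemoglobin genes with S100a3 and Tchh among its genes, held 40.2% in 72 normal cells. Clustering the normal library alone gave 1161 follicle cells that held 92.9% of its member UMIs, and the layers below are sub-clusters of these cells. There were 16, of which 5 are each called by a gene that anchors them, chosen after the sub-clusters had been seen. The other 11 were summed and held 938 cells. Among these, 134 cells met the marker count for dermal papilla, but Shh, a gene of the hair matrix, led them and they were given no name.

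The 43 Tchh cells, named inner root sheath-like, were led by Tchh, which encodes trichohyalin, a matrix protein of the sheath and the medulla, with Prr9 and Fbp1, and carried Gata3, a factor of sheath formation, at 501 CPM. They held 10450 member UMIs, 30.4% of all, of which 10441 came from inner root sheath keratins, 2 from shaft keratins and 7 from Krtap genes. In these cells Krt25 stood at 12226 CPM, Krt71 at 9639, Krt28 at 3108, Krt73 at 2748 and Krt27 at 2322. In the 938 follicle cells outside the 5 anchored sub-clusters the order was different, with Krt28 at 422, Krt25 at 317, Krt27 at 134, Krt71 at 15.8 and Krt73 at 1.46. The sheath keratins therefore differed in where their UMIs lay. The Tchh cells held 85.3% of Krt73 and 76.4% of Krt71 UMIs, but 45.1% of Krt25, 29.4% of Krt27 and 14.9% of Krt28 UMIs. The 938 remaining cells, in which the division gene Mki67 stood at 211 CPM against 71.9 in the Tchh cells, held 71.9% of Krt28, 60.4% of Krt27 and 41.6% of Krt25 UMIs, but 4.45% of Krt71 and 1.61% of Krt73 UMIs. In those cells 85.5% had a Krt28 UMI, 67.4% a Krt25 UMI and 9.70% a Krt71 UMI, at a median depth of 12970 UMIs. In the 8397 normal cells outside the follicle clusters, at a median depth of 5300, 1.37% had a Krt28 UMI and 1.57% a Krt25 UMI.

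The 83 Zfp750 cells, which no marker list named, lay between these groups in level for Krt25, Krt28, Krt71 and Krt73, with Krt25 at 1023 CPM, Krt28 at 684, Krt71 at 642, Krt27 at 126 and Krt73 at 110. They held 2716 member UMIs, and their Mki67 level was 216 CPM. Krt71 and Krt73 were thus higher there than in the remaining 938 cells, while Mki67 was about the same. Krt71 lay in 52 of these 83 cells, but Krt73 in only 11, with 31 of its 110 UMIs there in 1 cell. This group was not found as a separate sub-cluster when 500 variable genes were used, where Zfp750 led to the same 16 cells as Krt79.

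The 39 S100a3 cells, named hair shaft or matrix-like, were led by S100a3, a calcium-binding protein of the hair cuticle, and carried Hoxc13 and Lef1, known regulators of hair keratin genes, at 610 and 397 CPM. They held 66.3% of shaft keratin UMIs (3793), 54.7% of Krtap UMIs (1325) and 65 UMIs of inner root sheath keratins. Of these, 1509 shaft keratin and 1294 Krtap UMIs came from 1 cell. Krt35 led at 5700 CPM. Of the shaft keratins with at least 10 normal UMIs, 11 of 11 were highest in these cells, though this count fell to 9 of 11 without the 1 cell with the most member UMIs, Krt33a then being highest in the Zfp750 cells and Krt33b in the remaining 938. That cell is described below.

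The 43 Foxq1 cells were also named hair shaft or matrix-like, and were led by Csta1, Gpnmb and Foxq1, a factor needed for a normal medulla. They held 633 member UMIs, with Krtap8-1 at 778 CPM, Krt75 at 606, Krtap15 at 106 and Krt35 at 43.1. Krt35, with 15 UMIs in 3 of the 43 cells, was thus far below its level in the S100a3 cells. Hoxc13 and Lef1 stood at 356 and 437 CPM in the Foxq1 cells, and a link to the Krt35 level was not tested. Krtap15 had its highest level in the Foxq1 cells, from 37 UMIs in 13 cells. Krtap13-1 did too, but from 3 UMIs in 2 cells, while 11 of its 17 UMIs lay in the remaining 938 follicle cells. The 15 Krt79 cells, named companion layer or upper follicle-like, carried Krt75 at 5401 and Krt17 at 19082 CPM, and they held no Krtap UMI. Krt71 stood there at 312 CPM, but 20 of its 28 UMIs came from 1 cell, and without that cell the level was 99.3 CPM.

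**Figure D2:**
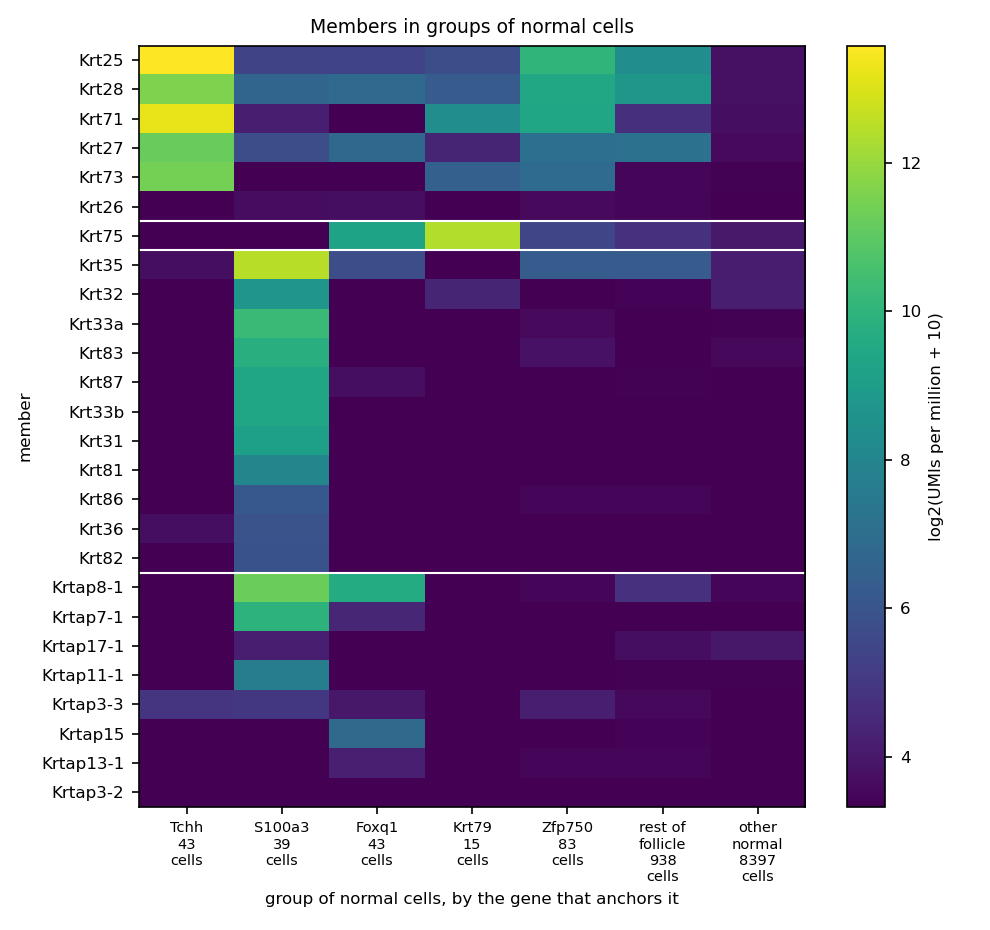
Level of each member with at least 10 UMIs in the normal library (rows, by layer) in 7 groups of normal cells (columns, named by an anchoring gene, with the number of cells), as log2(CPM + 10). Inner root sheath keratins except Krt26 peak in the Tchh cells, shaft keratins in the S100a3 cells and Krt75 in the Krt79 cells. Krtap8-1 is high in the Foxq1 cells and in the S100a3 cells, where 1 cell held 876 of its 888 UMIs.

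Within the Tchh cells every cell had Krt25 UMIs, from 1 to 715 with a median of 44. Krt71 ranged from 0 to 683 with a median of 18, and 35 of 43 cells had it. Krt73 ranged from 0 to 61 with a median of 16, and 42 cells had it. Krt25 and Krt71 were high in the same few cells, and Krt73 was spread more evenly. Across these 43 cells of 1 library, Spearman's rho was 0.87 between Krt25 and Krt71, 0.51 between Krt25 and Krt27, -0.39 between Krt25 and Krt73, and -0.54 between Krt71 and Krt73. These are correlations of levels relative to each cell's depth, and the cells share library and preparation. The cell with the second most member UMIs had 21193 UMIs in all, of which 715 were Krt25, 683 Krt71 and 16 Krt73.

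In the S100a3 cells Krt35 ranged from 0 to 320 UMIs with a median of 35, and 37 of 39 cells had it. Other shaft keratins lay in fewer cells, with Krt86 in 14, Krt36 in 9 and Krt32 in 5 of the 39, and Krtap8-1 in 6. Of the Krt32 UMIs in these cells, 74.5% came from 1 cell with 111. In the Foxq1 cells, by contrast, Krtap8-1 lay in 30 of 43 cells with a median of 2 and a highest value of 55, and Krt75 in 32 cells with a median of 3. In the Krt79 cells Krt75 lay in 14 of 15 cells with a median of 14 and a highest value of 119.

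**Figure D3:**
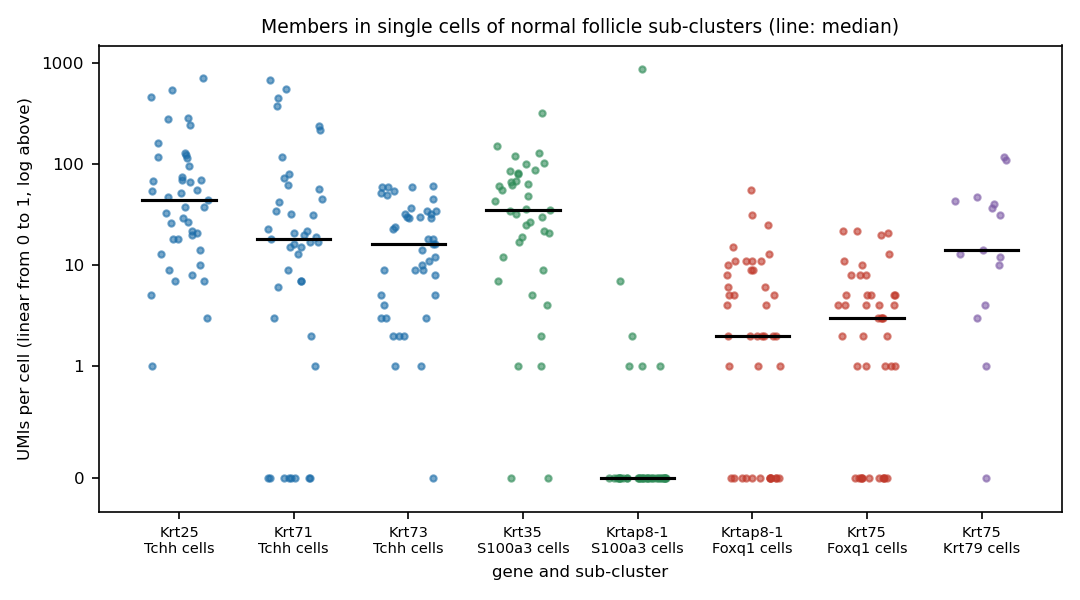
UMIs per cell of selected members in normal follicle sub-clusters, 1 point per cell, with a line at the median; the axis is linear from 0 to 1 and logarithmic above. Krt25 has a median of 44 in the Tchh cells and Krt35 of 35 in the S100a3 cells, while Krtap8-1 in the S100a3 cells has a median of 0 and 1 cell with 876.

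One normal cell held a large part of the shaft keratin and Krtap UMIs. It had 13031 UMIs and 1982 genes, and 2803 of its UMIs (21.5%) came from 14 members, led by Krtap8-1 with 876, Krt33a with 429, Krtap7-1 with 344, Krt83 with 312, Krt33b with 240, Krt87 with 234 and Krt31 with 194. It also had 1056 UMIs of S100a3 and none of Krt35. This single cell held 98.0% of the Krt33b UMIs of the normal library, 96.1% of Krtap7-1, 95.1% of Krt33a, 93.3% of Krt31, 92.5% of Krt87, 85.4% of Krt81, 76.3% of Krt83, 76.1% of Krtap11-1 and 61.0% of Krtap8-1. The normal levels of these genes therefore rest on 1 cell. Without it, the normal levels were 8.33 CPM for Krtap8-1, 1.44 for Krt83, 0.33 for Krt33a, 0.28 for Krt87, 0.22 for Krt81, and 0.21 for both Krt31 and Krtap7-1. It held 26.4% of all shaft keratin UMIs and 53.4% of all Krtap UMIs. In the S100a3 cells the Krtap8-1 level was 2450 CPM with it and 34.3 without it. Without the top cell of each library, 22 of 26 members were called lower in the IMQ than in the normal library. In the CE library 22 of 27 were. With all kept cells, 14.1% and 14% of all genes were called lower, and the share without the top cells is not given here. Krt33b, left with 5 normal UMIs, was no longer compared. Krt83 in the IMQ library, Krt81 in the CE library and Krt36 in both were no longer called without the top cells. The log2 difference of Krt83 from normal was then -0.74 in the IMQ and -1.96 in the CE library, against -2.82 and -4.03 with all kept cells.

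How many follicle cells carried members of more than 1 layer depended on the threshold. Of the 1161 follicle cells, 560 had at least 10 UMIs of inner root sheath keratins, 54 of shaft keratins and 19 of Krtap genes. Shaft and inner root sheath keratins both reached 10 UMIs in 2 cells, shaft keratins and Krtap genes in 2, and inner root sheath keratins and Krtap genes in 1. At 5 UMIs, 38 cells held both shaft and inner root sheath keratins, 36.5% of the 104 cells with shaft keratins, and at 20 UMIs none (0) did.

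Over whole libraries, 734 normal cells (7.68%, exact binomial interval 7.15 to 8.23) had at least 10 member UMIs, against 4 IMQ cells (0.0534%, 0.0145 to 0.137) and 2 CE cells (0.0328%, 0.00398 to 0.119). At least 1 member UMI was found in 22.1%, 3.55% and 5.14% of cells. Member UMIs were thus concentrated in strong carriers in the normal library, where 89.1% lay in cells with at least 10, and scattered in the others, where 13.7% and 14.3% did. Cells with a single member UMI held 2.16% of the normal member UMIs, 45.0% of the IMQ and 48.9% of the CE member UMIs. Outside the follicle clusters, 11.8% of normal cells had a member UMI. With each cell thinned to 2000 UMIs, which left out 1018, 670 and 438 shallower cells, at least 10 member UMIs remained in 83 normal cells (0.972%), 0 IMQ cells and 1 CE cell (0.0177%), and at least 1 in 14.9%, 0.864% and 0.867%.

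**Figure D4:**
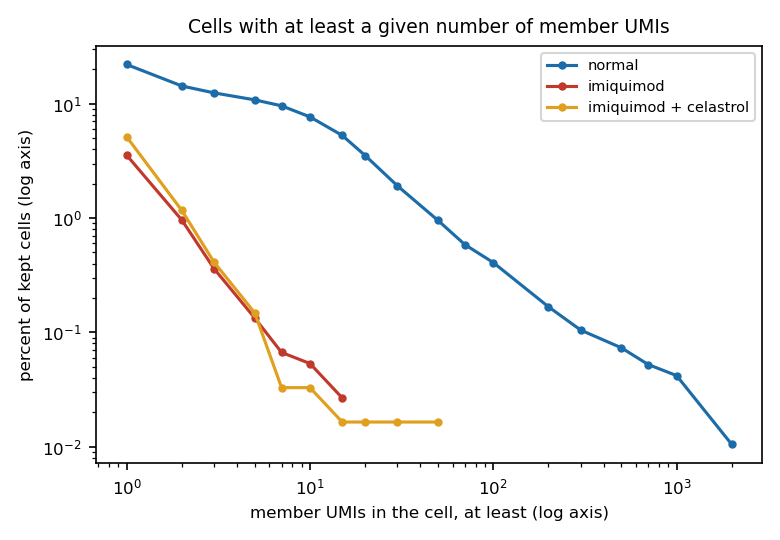
Percent of kept cells (log axis) with at least a given number of member UMIs (log axis), 1 line per library; a line ends where no cell reaches the next value. The normal line lies above the others throughout and reaches past 1000 UMIs, and the highest cells have 18 UMIs in the IMQ and 57 in the CE library.

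Outside the follicle-named clusters, several members lay in other cell types, at places chosen after seeing where their UMIs fell. Krt83 was found in T cell-like cells in all 3 libraries. In T cell-like cells led by Il17a, Il17f and Il22 (109 normal, 268 IMQ and 121 CE cells), it stood at 81.5 (50.4 to 125), 26.03 (18.9 to 35.0) and 26.2 (13.9 to 44.8) CPM, from 21, 44 and 13 UMIs. The other cells outside the follicle stood at 1.17, 0.451 and 0.235 CPM. A Krt83 UMI was found in 17.4%, 13.8% and 7.44% of the Il17a cells, at median depths of 2305, 4985 and 3365 UMIs, against 0.532%, 0.443% and 0.302% of the other cells at deeper medians. Krt25, the most abundant member of the normal library, had no UMI in these cells in any library. This absence says little, because the whole IMQ and CE libraries held only 5 and 2 Krt25 UMIs. In normal cells outside the follicle clusters Krt25 stood at only 3.69 CPM, and the normal Il17a cells were few and shallow. Krt83 also stood at 23.2, 9.003 and 28.5 CPM in T cell-like cells led by Cd7, and at 33.2, 11.6 and 12.4 in cells led by Ccl5 and Gzma, which had no name. In the normal library the Cd7 cells also had a Krt25 level of 6.75 CPM and the Ccl5 and Gzma cells one of 6.64 CPM. In the IMQ library, 23 further Krt83 UMIs lay in 11 of 144 neutrophil-like cells. The 95% intervals of the Il17a cells in normal and IMQ do not overlap, but 1 library of each was measured.

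Krt28 was found in the same Il17a cells in the IMQ library, with 29 of its 44 UMIs in 23 of 268 cells, or 17.2 CPM (11.5 to 24.6) against 0.135 in the other cells. In the normal library 1 UMI and in the CE library 3 UMIs lay there. Krt36 was also found in cells without a name led by Smpd3, Chrdl1 and Dpp4, at 27.2 (11.7 to 53.6), 7.13 and 6.82 CPM from 8, 19 and 17 UMIs, against 0.115, 0.0679 and 0.0654 in the other cells. These cells held 22.2% of the Krt36 UMIs of the normal library, where a follicle-named cluster held 41.7%, and 73.1% and 73.9% of those of the IMQ and CE libraries.

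Krt32 was found in basal keratinocyte-like cells, at 29.0 CPM (25.6 to 32.8) in the normal, 0.236 (0.0642 to 0.604) in the IMQ and 4.86 (4.04 to 5.79) in the CE library, from 256, 4 and 125 UMIs. The cells with a UMI were 169 of 1049, 3 of 304 and 95 of 824, and the median depths were 8020, 48987.5 and 26734 UMIs, so the deepest cells had the fewest. Krt25 stood at 2.16, 0.177 and 0.0389 CPM in the same cells. The clusters that made up these cells differed between the libraries, and the part of that difference in the Krt32 levels was not tested. Most normal cells (987) lay in a cluster led by Fcgbp and Krt15. Most IMQ cells (294) lay in a cluster led by the division genes Ube2c and Top2a, and most CE cells (551) in one led by Col17a1. Krt27 in upper follicle-like cells led by Lmo1 stood at 5.21 (2.38 to 9.88), 3.38 and 3.20 CPM, from 9, 13 and 22 UMIs. The other cells outside the follicle stood at 1.59, 0.835 and 0.298, and Krt25 in the normal Lmo1 cells at 5.78 CPM. In upper follicle-like cells led by Krt79, Krt27 stood at 3.44 in the IMQ and 0.984 in the CE library.

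Krtap17-1 differed from the other Krtap genes in lying mainly in outer root sheath or bulge-like cells led by Gnmt, Tbx1 and Lhx2 (742 normal, 24 IMQ and 20 CE cells). It stood there at 51.0 (45.4 to 57.1), 27.6 (14.7 to 47.3) and 27.5 (13.2 to 50.6) CPM, from 303, 13 and 10 UMIs, and in 9.70%, 16.7% and 25% of cells. These shares rest on 72, 4 and 5 cells, and the treated cells were deeper, with medians of 6086.5, 12101.5 and 12303.5 UMIs. The other cells outside the follicle stood at 0.215, 0.0190 and 0.0746, and Krt25 in the normal Gnmt cells at 7.24 CPM. The CPM intervals of the 3 libraries in these cells overlapped, which does not show equal levels, and no ratio between the libraries was computed there. In the CE library 57 further UMIs lay in 1 follicle-named cell. Krtap3-2 rested on few cells: 33 of its 38 IMQ UMIs lay in 6 of 538 cells led by Sprr2d and Krt6b, with 18 in 1 cell, and 34 of its 46 CE UMIs lay in 11 of 824 basal keratinocyte-like cells, with 14 in 1 cell. Without the top cell of each library it was not called in the IMQ library, with a log2 difference of 0.35.

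**Figure D5:**
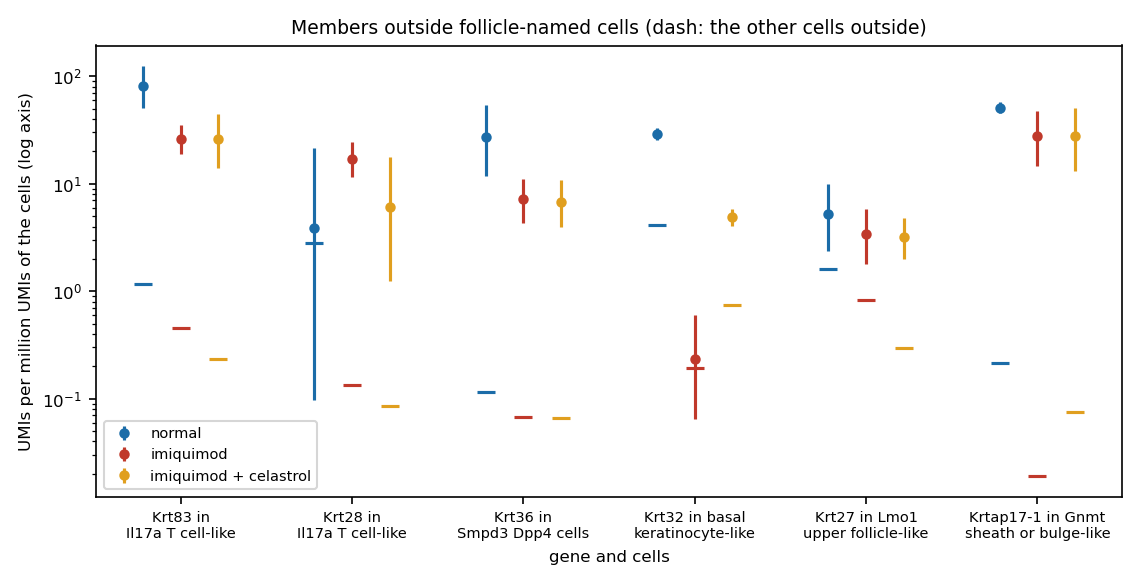
CPM (log axis) of 6 members in 6 gene and cell-type pairs outside the follicle-named clusters, by library, with 95% counting intervals. The dash shows the level of the same gene in all other cells outside the follicle. Krt83, Krt36, Krt27 and Krtap17-1 stand above the dash in all 3 libraries, while Krt32 in basal keratinocyte-like cells stands at its dash in the IMQ library. The normal Krt28 point rests on 1 UMI, and its interval spans the dash.

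Genes that regulate or accompany these members were followed from a list of follicle factors, signals and structural genes. Of 56 compared, 28 were called lower and 7 higher in the IMQ than in the normal library, where 14.1% of all genes were lower and 10.1% higher, and the median log2 difference was -0.79 against -0.08 over all genes. In the CE library 23 were lower and 8 higher, where 14% and 6.67% of all genes were. By role, 11 of 17 transcription factors, 10 of 16 signals and 7 of 23 structural genes were lower in the IMQ library, and 7, 9 and 7 in the CE library. Dlx3, a homeobox factor of the matrix and sheath, stood at 42.3, 0.445 and 0.933 CPM. Hoxc13 stood at 27.1, 0.681 and 0.901, Msx2 at 58.4, 3.65 and 4.43, and Lef1 at 49.5, 4.39 and 16.9. Among signals, Shh, made by the hair matrix, had 996 UMIs in the normal library and 0 in both others, at least 521-fold and at least 465-fold higher. Edar, the ectodysplasin receptor, stood at 2.91, 0.0189 and 0.0318 CPM, and Fgf5, which ends hair growth, at 2.15, 0.0189 and 0.0530. Of the structural genes, S100a3 stood at 125, 1.73 and 1.90, Tchh at 37.4, 5.88 and 11.99, Padi3, an enzyme that modifies trichohyalin, at 3.83, 0.123 and 0.223, and Gprc5d at 2.51, 0.0851 and 0.0212.

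The genes of the list called higher in both treated libraries are known from the epidermis as well as the follicle. Tgm1 and Tgm3, transglutaminases that cross-link cornified proteins, stood at 4.20, 42.6 and 25.1 and at 8.23, 46.0 and 36.2 CPM. Dsc2, a desmosomal cadherin, stood at 1.31, 13.0 and 9.18, Prdm1 at 13.9, 60.4 and 36.1, Ovol1 at 61.6, 148 and 133, and Foxn1 at 1.74, 3.77 and 3.89. Between CE and IMQ, 9 of 52 were higher and 2 lower in the CE library, where 3.29% and 7.61% of all genes were, and Lef1 was 3.84-fold higher.

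The genes most like each group of members in level over 45 groups of normal cells were named by Pearson's r of log2(CPM + 10), among 9608 genes. For the inner root sheath keratins these were Dlx3 (r = 0.94), Golga7b (0.91), Mrpl3 (0.90), Msx2 (0.89) and Dlx4 (0.88). For the shaft keratins they were AC103674.4 (0.90), S100a3 (0.77), Selenbp1 (0.73), Kctd6 (0.70) and Sox21 (0.67). For the Krtap genes they were S100a3 (0.90), AC103674.4 (0.84), Ppp2r1b (0.81), Nfe2l3 (0.80) and Hoxc13 (0.79). AC103674.4, which shares part of its sequence with the 3' end of Krt87, had 972 UMIs in the normal library and 0 in the others. The cell groups share 1 library and few of them hold members, so r describes this library only. A single normal cell held 53.4% of the Krtap and 26.4% of the shaft keratin UMIs, and 1056 UMIs of S100a3. The r values were not computed without that cell.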

How the data were processed

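The authors deposited, for each of 3 libraries, a 10x matrix of raw UMI counts per gene and cell barcode, which the file headers credit to Cell Ranger 4.0.0 and the submitters' processing notes to mm10 or GRCm38. No source used here gives the cell calling and alignment options. The members, pathway lists, markers and sub-cluster anchors were chosen with earlier results of these data known.

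Barcodes with under 300 genes or over 20% mitochondrial UMIs were left out, as were the 8.34%, 6.41% and 5.14% of passing barcodes in the normal, IMQ and CE libraries with the highest simulated-doublet score (0.8% per 1000 cells in every library). Counts scaled to 10000 per cell were clustered (Leiden, 2000 variable genes without members, 30 components, 15 neighbours, resolution 1, no integration) in Python 3.11.15 with numpy 2.4.6, scipy 1.17.1, scikit-learn 1.9.0 and leidenalg 0.10.2. Clusters were named where at least 2 markers of 1 of 22 lists were among the top 30 genes and at least 3 were detected in 25% of cells. Normal follicle cells were sub-clustered with 1000 variable genes and 15 components.

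Levels are summed UMIs as CPM with exact Poisson intervals, ratios have exact conditional binomial intervals and shares exact Clopper-Pearson intervals, all at 95% and for counting error alone. A gene with 0 UMIs was set to a floor of 3 counts per library. PCR duplicates were removed by UMI in the deposited counts. Calls needed 10 UMIs, a 2-fold difference and an interval off 1, and the calling script was checked on simulated data. Promoters are RefSeq windows, cut to the 250 bases before the start and searched on both strands. Named genes were every keratin member, the Krtap genes with the most normal UMIs and the top gene of each Krtap family, members with the highest levels in or called between the treated libraries, the 5 genes most like each group, and pathway genes called in both comparisons with normal. Alternatives were doublets kept, no filter on barcodes, at least 1000 genes per cell, median scaling, other thresholds and cluster settings, thinning, and, added after seeing the data, leaving out the cell with the most member UMIs in each library and 500 variable genes for sub-clusters.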

Additional observations from a re-analysis of the deposited data

How the results depend on the processing

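No paired analysis was possible because each group has 1 library. The share of normal member UMIs in follicle-named clusters depended most on the processing. It was 53.3% as reported, 87.3% with doublets kept, 93.0% with cells of at least 1000 genes, 93.4% with the members among the clustering genes, 92.9% with the normal library clustered alone and 58.1% without the cell with the most member UMIs. That cell also moved the log2 differences from normal: without it the shaft keratins stood at -5.34 in the IMQ (-5.78 with it) and -4.47 in the CE library (-4.91), and the Krtap genes at -5.40 (-5.99) and -4.32 (-4.64). Cells with at least 10 member UMIs were 8.55% of normal cells of at least 1000 genes, and, thinned, 0.972% of normal and 0% of IMQ cells, while at least 5 UMIs gave 10.8% of normal and 0.148% of CE cells. No member was called higher in the IMQ library (0) without the top cells or at 4-fold, none (0) higher in the CE library at 4-fold, and none (0) lower in CE than in IMQ at 4-fold, where 3 were at 2-fold. At 2-fold with all kept cells, 10.1%, 6.67% and 7.61% of all genes were called in these 3 directions. The shares at the other settings are not given here, so these counts of 0 describe the members only. The median log2 ratio to normal over all genes was -0.14 for IMQ and -0.16 for CE, and with it subtracted Krt36 was no longer called lower than normal (-0.98 and -0.97). Signs turned only for differences near 0: Krtap28-13 between CE and IMQ (-0.00527 with doublets kept, -0.00777 with all barcodes), Krt36 (0.00300 and 0.000497 there) and Krt84 in CE against normal (0.16 at median scaling). Over all alternatives, those above included, 99 of 117 summary values moved by less than their counting interval or, for counts, by less than 1.5 times. With 500 variable genes, which gave 4 of the 5 anchored sub-clusters, 25 of 26 members kept the sub-cluster of their highest level, and 21 of 26 did without the top cell. With 1 library per group, counting error is the only error known, and members under 10 UMIs gave no comparison.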
